A study of Mus musculus with 32 samples.

Results

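Tbx21, Eomes, Gata3, Rora and Maf encode transcription factors that steer activated T cells toward an effector lineage, and they were taken from the table by gene symbol. All 5 were found among the 16741 genes measured, in 31 bulk RNA libraries of sorted mouse T cells that fall into 10 groups. The cells came from a mouse model of graft-versus-host disease (GVHD), the attack of donor T cells on the tissues of the recipient. Donor T cells of C57Bl6 mice were given to Balb/c recipients, which differ from the donors at the major histocompatibility loci, and were recovered from spleen and lymph nodes. The cells sorted were CD4 and CD8 conventional T cells, and regulatory T cells (Treg). The groups taken before transplant, called day 0 here, were CD4, CD8 and Treg cells with 2 libraries each. The untreated GVHD groups, called allogeneic here, were CD4 and CD8 cells with 4 libraries each. The GVHD groups given Treg on the day of transplant, called Treg-treated here, were CD4 and CD8 cells with 4 libraries each and Treg cells with 3. The syngeneic control groups, untreated and without the strain mismatch, were CD4 and CD8 cells with 3 libraries each. Sample titles place the recovered cells on day 6 after transplant, whereas the series description gives day 8. Each title carries a prefix, JL019 or JL027, whose meaning is not stated. Most titles of recovered cells also carry a number, so that libraries are named here as JL019-1, JL019-2, JL027-1 and JL027-2. Titles of day 0, of the JL027 syngeneic libraries and of the JL027 Treg library of the Treg-treated group carry none. Those libraries are named by prefix. The age of the mice, the conditioning of the recipients, the cell doses and whether animals were pooled are not given in the sources used here.

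T-bet, the product of Tbx21, drives the type 1 programme of interferon-gamma-producing helper cells and, with its T-box relative eomesodermin, the cytotoxic programme of CD8 T cells. GATA3 drives the type 2 programme of helper cells and is also used by regulatory T cells, RORα takes part in the type 17 programme, and c-Maf is known for its part in IL-10, IL-4 and IL-21 production and in follicular helper and regulatory T cells. In GVHD, donor cells that recognise the recipient expand and acquire such effector programmes, and co-transferred Treg are used to restrain them.

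Tbx21 (ENSMUSG00000001444) lies at chr11:97098007-97115331 and Eomes (ENSMUSG00000032446) at chr9:118478186-118486132 of the mouse genome, with coordinates from RefSeq on GRCm38.p6. Gata3 (ENSMUSG00000015619) lies at chr2:9857078-9887953, Rora (ENSMUSG00000032238) at chr9:68653404-69388246 and Maf (ENSMUSG00000055435) at chr8:115703253-115706894. The promoters of the T-box pair are shown because the levels of these related factors parted in CD8 cells, where Eomes fell between the syngeneic and the allogeneic group and no difference was detected for Tbx21. The 250 bases before the start of each gene in the RefSeq promoter table, which lists 1 start per gene, were read 5′ to 3′ on the strand of the gene, at chr11:97115332-97115581 for Tbx21 (minus strand) and chr9:118477939-118478188 for Eomes (plus strand). The start in that table can lie inside the gene span given above, as it does for Eomes, whose span begins at 118478186. Capitals mark the GC box GGGCGG and the CCAAT box, the latter printed as ATTGG where it lies on the other strand.
Tbx21: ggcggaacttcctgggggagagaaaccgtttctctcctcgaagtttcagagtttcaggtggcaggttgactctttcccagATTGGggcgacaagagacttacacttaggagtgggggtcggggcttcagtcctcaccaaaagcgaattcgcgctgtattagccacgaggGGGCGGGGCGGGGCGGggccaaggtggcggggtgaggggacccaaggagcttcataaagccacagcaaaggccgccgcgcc
Eomes: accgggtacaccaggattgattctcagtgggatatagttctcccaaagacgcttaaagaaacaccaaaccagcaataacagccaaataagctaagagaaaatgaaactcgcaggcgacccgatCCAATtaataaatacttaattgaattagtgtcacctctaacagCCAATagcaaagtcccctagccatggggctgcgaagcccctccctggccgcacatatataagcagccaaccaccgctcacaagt

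The Tbx21 window held 3 GC boxes that overlap each other and 1 CCAAT box, with a GC content of 60.8%. The Eomes window held 2 CCAAT boxes and no GC box, with a GC content of 46.4%. The corresponding window of Gata3 had a GC content of 70% and held 2 GC boxes, and that of Rora had a GC content of 61.2% and held neither box. Both windows lie inside the gene spans given above, at chr2:9878601-9878850 for Gata3 (minus strand) and chr9:68653536-68653785 for Rora (plus strand). Of all 32851 promoter windows of this length, 32.7% held GGGCGG and 33.8% held CCAAT on either strand. None of the 4 windows held the T-box letters GGTGTGA (3.33% of all windows), the GATA letters AGATAA (9.99%), the ROR letters AGGTCA (14%), the MAF letters TGCTGAC (3.81%), the GAS letters TTCNNNGAA (7.02%) or the RUNX letters TGTGGT (14%), searched on both strands. The RUNX, GC and CCAAT letters were added to the search after the sequences had been seen. These matches describe the letters of the windows and no binding was measured.

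The values are normalised counts, on which levels of different genes are not comparable because gene length was not taken into account. The mean normalised count per gene of a library ranged from 1227 to 2385, and the correlation between libraries of a group over genes ranged from 0.883 to 0.977. Sequencing depth cannot be read from these values. In bulk libraries, fewer cells of a type and less RNA per cell cannot be told apart. Cd4, the co-receptor that defines CD4 cells, was at 14576 and 16526 in the CD4 syngeneic libraries JL027 and JL019-1 but at 1659 in JL019-2. The same library had a Cd8a value of 1956, against 58.2 and 114 in the other 2, and the summed value of 10 myeloid marker genes was 3634936 there against 80879 and 87081. The sum of 7 natural killer cell genes was 70519 in it against 1349 and 1596. In all other libraries of CD4 cells Cd4 was at 8722 to 21480.5 and Cd8a at 16.4 to 114, and in CD8 libraries Cd8a was at 14160.0 to 61115 and Cd4 at 8.76 to 92.8. All 5 factors had their lowest CD4 syngeneic value in this library, and the comparisons of the 5 factors that use it are given below with and without it. It also enters the spread by which the other comparisons were tested, and those were not refitted without it alone. The Treg libraries of day 0 had Foxp3, the defining Treg factor, at 198 and 442, below the CD4 libraries of day 0 at 1145 and 978. Their Il2ra (11229 and 13064) and Ikzf2 (19287 and 14182) values, markers of the same cells, were above those of the CD4 libraries (1981 and 1923 for Il2ra, 1619 and 1769.9 for Ikzf2). In the Treg-treated group the Treg libraries had Foxp3 at 265 to 293, above the CD4 libraries of that group (127 to 178), below the CD4 allogeneic ones (337 to 579) and within the range of the CD8 allogeneic ones (103 to 453). The markers of the Treg label thus disagreed in the Treg libraries, which are called libraries labelled Treg below. Where Treg names a sorted group, it means that label only.

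Tbx21, the type 1 factor, was high in CD8 cells of every transplanted group and, among CD4 cells, in the allogeneic and Treg-treated groups. In CD4 cells its normalised count was 566 and 535 at day 0 and 1346, 312 and 845 in the syngeneic libraries JL019-1, JL019-2 and JL027. It was 4927, 4672, 3434 and 4415 in the allogeneic libraries (JL019-1, JL019-2, JL027-1 and JL027-2, the order used throughout) and 2858, 2515, 3082 and 2209.5 in the Treg-treated libraries. Every allogeneic CD4 library was above every library of the other 3 CD4 groups, and every Treg-treated one was above every syngeneic one. The allogeneic mean of 4362 ± 653 (SD, n = 4) stood against a syngeneic mean of 834 ± 517 (n = 3), a log2 change of 2.61 (standard error 0.39, limma adjusted p = 2.66e-05), or 6.09-fold. Without the syngeneic library JL019-2 the change was 2.02 (limma adjusted p = 0.00043). Against day 0 the allogeneic CD4 value rose by 2.97 on the log2 scale (limma adjusted p = 1.00e-05).

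In CD8 cells Tbx21 was already raised in the syngeneic control. Its normalised count was 1059 and 1333 at day 0, 6959.8, 6757 and 4775 in the syngeneic libraries, 4976, 5821, 2362 and 5688 in the allogeneic libraries and 7661, 2195, 6634 and 5907 in the Treg-treated libraries. The 3 transplanted CD8 groups overlapped, and 1 library was far below the rest in the allogeneic group (JL027-1) and in the Treg-treated group (JL019-2). The syngeneic mean of 6164 ± 1207 (n = 3) exceeded the day 0 mean of 1196 ± 194 (n = 2) by 2.35 on the log2 scale (standard error 0.47, limma adjusted p = 0.000905). The allogeneic value differed from the syngeneic one by -0.45 (95% interval -1.26 to 0.35, limma adjusted p = 0.460), so no difference was detected between them. In the libraries labelled Treg, Tbx21 was at 156 and 252 at day 0 and at 1493, 1070.4 and 1721 in the Treg-treated group, with no overlap. This rise was 2.81 on the log2 scale (standard error 0.47, limma adjusted p = 9.47e-05), or 7.03-fold. Ordered by level, the 10 groups ran from CD8 syngeneic, CD8 Treg-treated, CD8 allogeneic, CD4 allogeneic, CD4 Treg-treated and Treg-cell Treg-treated to CD8 day 0, CD4 syngeneic, CD4 day 0 and Treg day 0. Of the 9 pairs of neighbours in that order, 3 had ranges that lay apart: CD4 allogeneic over CD4 Treg-treated, CD4 Treg-treated over Treg-cell Treg-treated, and CD4 day 0 over Treg day 0.

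Eomes, the T-box factor of memory and cytotoxic CD8 cells, had its highest values in syngeneic CD8 cells and low values in CD4 cells and libraries labelled Treg. Its normalised count in CD8 cells was 1006 and 1253 at day 0, 4985, 5311 and 4457 in the syngeneic libraries, 1189, 1192, 857 and 1151 in the allogeneic libraries and 1146, 803, 1232 and 1297 in the Treg-treated libraries. The syngeneic libraries lay above all other CD8 libraries, and the remaining 3 groups overlapped. From day 0 to the syngeneic group Eomes rose by 2.13 on the log2 scale (standard error 0.31, limma adjusted p = 2.94e-05). The allogeneic mean of 1097 ± 161 (n = 4) was 4.51-fold below the syngeneic mean of 4918 ± 431 (n = 3), with a log2 change of -2.17 (standard error 0.26, limma adjusted p = 4.78e-07), and differed from day 0 by -0.05 (limma adjusted p = 0.923). Thus the syngeneic CD8 cells had both T-box factors above day 0, and the allogeneic cells had a Tbx21 value 1.90 above day 0 on the log2 scale (limma adjusted p = 0.00180) with no detected change of Eomes.

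In CD4 cells Eomes was at 139 and 172 at day 0, 554, 253 and 463 in the syngeneic libraries, 318, 431, 316 and 389 in the allogeneic libraries and 263, 259, 269 and 176 in the Treg-treated libraries. Every transplanted CD4 library was above both day 0 libraries, the syngeneic and allogeneic ranges overlapped, and every Treg-treated library was below every allogeneic one. Eomes in CD4 cells rose from day 0 by 1.22 in the allogeneic group (limma adjusted p = 0.00318) and by 1.37 in the syngeneic group (standard error 0.31, limma adjusted p = 0.00336). Without the day 0 library JL019 these became 1.06 (limma adjusted p = 0.0749) and 1.22 (limma adjusted p = 0.0784), and without the syngeneic library JL019-2 the latter was 1.71 (limma adjusted p = 0.000277). In a fit to the syngeneic and day 0 CD4 groups alone its limma adjusted p was 0.252. Between allogeneic and syngeneic CD4 cells the Eomes difference was -0.16 (95% interval -0.70 to 0.38, limma adjusted p = 0.771), or -0.49 (0.309) without the syngeneic library JL019-2. In libraries labelled Treg, Eomes was at 57.4 and 79.1 at day 0 and at 249.7, 166 and 366 in the Treg-treated group, a rise of 1.86 (standard error 0.31, limma adjusted p = 0.000110). By level the groups ran from CD8 syngeneic, CD8 day 0, CD8 Treg-treated, CD8 allogeneic, CD4 syngeneic and CD4 allogeneic to Treg-cell Treg-treated, CD4 Treg-treated, CD4 day 0 and Treg day 0. Of these 9 pairs of neighbours 4 had ranges that lay apart: CD8 syngeneic over CD8 day 0, CD8 allogeneic over CD4 syngeneic, CD4 Treg-treated over CD4 day 0, and CD4 day 0 over Treg day 0.

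**Figure D1:**
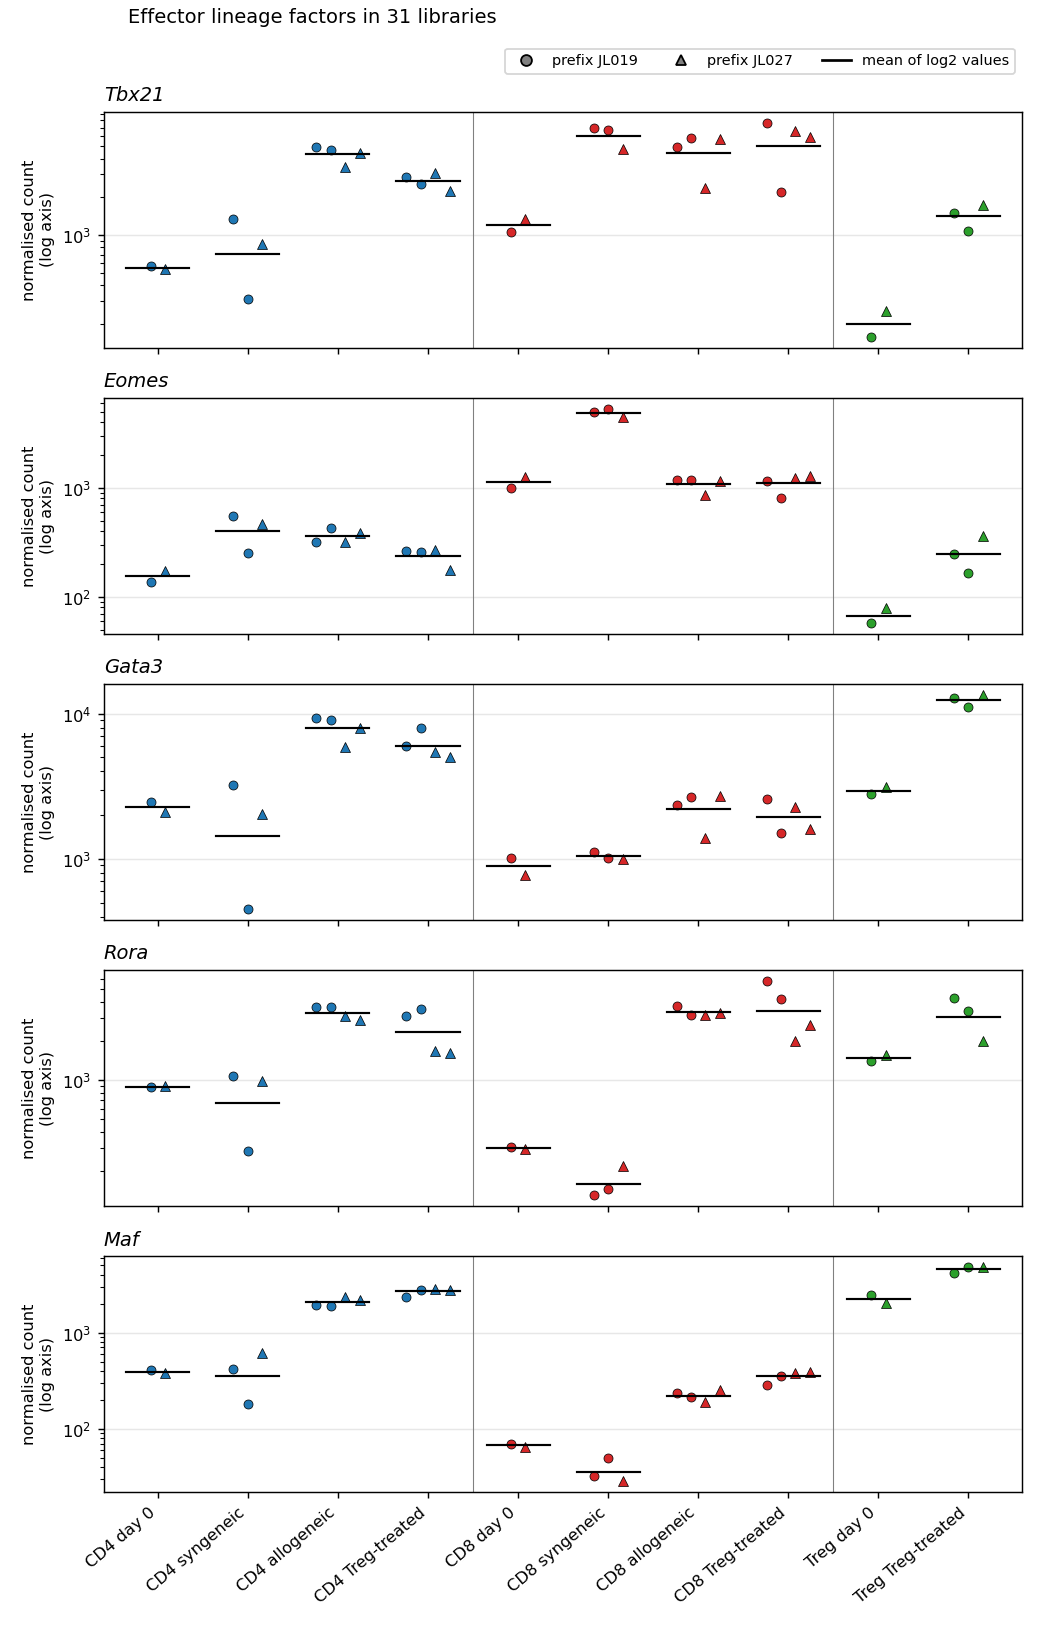
Normalised count on a log axis (vertical) of Tbx21, Eomes, Gata3, Rora and Maf in each of the 31 libraries, by group (horizontal). Circles are JL019 and triangles JL027 libraries, and bars are means of the log2 values. The CD8 syngeneic libraries are high for Tbx21 (4775 to 6959.8) and Eomes (4457 to 5311) and low for Rora (131 to 218) and Maf (28.5 to 50.1), and the CD4 syngeneic library JL019-2 is the lowest of its group in all 5 panels.

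Gata3, the type 2 factor, was highest in the libraries labelled Treg of the Treg-treated group and rose in allogeneic CD4 cells. In CD4 cells its normalised count was 2454 and 2112 at day 0, 3220.3, 449 and 2022 in the syngeneic libraries, 9368, 9002, 5887 and 8029 in the allogeneic libraries and 6002, 7989.6, 5485 and 4995 in the Treg-treated libraries. All 8 GVHD libraries of CD4 cells were above all 5 day 0 and syngeneic ones, and the allogeneic and Treg-treated ranges overlapped. The allogeneic mean of 8072 ± 1562 (n = 4) exceeded the syngeneic mean of 1897 ± 1389.7 (n = 3) by 2.47 on the log2 scale (standard error 0.38, limma adjusted p = 3.91e-05), or 5.55-fold. Without the syngeneic library JL019-2, which was lowest at 449, the change was 1.64 (limma adjusted p = 8.51e-05). Against day 0 the allogeneic CD4 change was 1.80 (limma adjusted p = 0.00272), which became 1.69 (limma adjusted p = 0.0501) without the day 0 library JL027.

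In CD8 cells Gata3 was at 1018 and 772 at day 0, 1117, 1014 and 992 in the syngeneic libraries, 2361, 2689, 1395 and 2689.6 in the allogeneic libraries and 2569, 1512, 2283 and 1599 in the Treg-treated libraries. Each of the 8 GVHD libraries of CD8 cells was above each syngeneic one. The allogeneic change from the syngeneic control was 1.09 (standard error 0.38, limma adjusted p = 0.0436) and that from day 0 was 1.32 (limma adjusted p = 0.0228). The first lost its call when any 1 of 6 of its 7 libraries was left out, the exception being the allogeneic JL027-1, with values of 0.99 to 1.31 and limma adjusted p up to 0.125, and with quantile normalisation (1.03, 0.0535). The second lost it without the day 0 library JL019 (1.51, limma adjusted p = 0.0708), the day 0 library JL027 (1.12, 0.143), or the allogeneic JL019-2 (1.22, 0.0518) or JL027-2 (1.22, 0.0530). In libraries labelled Treg, Gata3 was at 2794 and 3126 at day 0 and at 12935, 11159 and 13469 in the Treg-treated group, which is above every other library of the series. The rise was 2.08 on the log2 scale (standard error 0.46, limma adjusted p = 0.00219), or 4.22-fold. By level the groups ran from Treg-cell Treg-treated, CD4 allogeneic, CD4 Treg-treated, Treg day 0 and CD4 day 0 to CD8 allogeneic, CD8 Treg-treated, CD4 syngeneic, CD8 syngeneic and CD8 day 0, ordered by the mean of log2 values. Of these neighbours 3 had ranges that lay apart: Treg-cell Treg-treated over CD4 allogeneic, CD4 Treg-treated over Treg day 0, and Treg day 0 over CD4 day 0.

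Rora, the RORα gene, had the widest difference of the 5 between syngeneic and allogeneic CD8 cells. Its normalised count in CD8 cells was 310.1 and 296 at day 0, 131, 146 and 218 in the syngeneic libraries, 3686, 3187, 3165 and 3281 in the allogeneic libraries and 5766, 4160.3, 2016 and 2662 in the Treg-treated libraries. The syngeneic libraries were below both day 0 libraries, and every GVHD library of CD8 cells was above both. The allogeneic mean of 3329.8 ± 243 (n = 4) stood against a syngeneic mean of 165 ± 46.7 (n = 3), a log2 change of 4.36 (standard error 0.37, limma adjusted p = 8.52e-10), or 20.5-fold. From day 0 the allogeneic change was 3.45 (limma adjusted p = 3.65e-07) and the syngeneic change was -0.91 (limma adjusted p = 0.130).

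In CD4 cells Rora was at 888 and 900.4 at day 0, 1072, 288 and 982 in the syngeneic libraries, 3648, 3632, 3104 and 2883 in the allogeneic libraries and 3088, 3512, 1674 and 1631 in the Treg-treated libraries. All GVHD libraries of CD4 cells were above all day 0 and syngeneic ones, and both JL019 values of the Treg-treated group were above both JL027 values. The allogeneic mean of 3317 ± 384 (n = 4) was 4.90-fold the syngeneic one of 781 ± 429 (n = 3), with a log2 change of 2.29 (standard error 0.37, limma adjusted p = 6.60e-05), or 1.68 (limma adjusted p = 0.000980) without the syngeneic library JL019-2. Against day 0 it was 1.88 (limma adjusted p = 0.00129). In the libraries labelled Treg, Rora was at 1414 and 1554 at day 0 and at 4259, 3376 and 1989 in the Treg-treated group, a difference of 1.04 that did not pass the test (limma adjusted p = 0.132) although the ranges lay apart. By level the groups ran from CD8 Treg-treated, CD8 allogeneic, CD4 allogeneic, Treg-cell Treg-treated and CD4 Treg-treated to Treg day 0, CD4 day 0, CD4 syngeneic, CD8 day 0 and CD8 syngeneic. The 3 pairs of neighbours whose ranges lay apart were CD4 Treg-treated over Treg day 0, Treg day 0 over CD4 day 0, and CD8 day 0 over CD8 syngeneic. The 4 highest groups all overlapped their neighbours.

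Maf, the c-Maf gene, was high in the libraries labelled Treg and in the GVHD CD4 cells and low in CD8 cells. Its normalised count in CD4 cells was 408 and 376 at day 0, 417, 180.1 and 607 in the syngeneic libraries, 1919, 1882, 2313 and 2172 in the allogeneic libraries and 2324, 2733, 2849 and 2795 in the Treg-treated libraries. All Treg-treated CD4 libraries were above all allogeneic ones, which in turn were above all syngeneic and day 0 ones. The allogeneic mean of 2072 ± 206 (n = 4) was 5.76-fold the syngeneic mean of 401 ± 214 (n = 3), with a log2 change of 2.53 (standard error 0.26, limma adjusted p = 7.76e-08), or 2.03 (limma adjusted p = 9.74e-08) without the syngeneic library JL019-2. Against day 0 the CD4 change was 2.40 (limma adjusted p = 4.15e-07).

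In CD8 cells Maf was at 70.3 and 65.0 at day 0, 32.6, 50.1 and 28.5 in the syngeneic libraries, 238, 212, 191 and 251 in the allogeneic libraries and 284, 357, 379.7 and 389.5 in the Treg-treated libraries. The 4 CD8 groups did not overlap, in the order Treg-treated, allogeneic, day 0 and syngeneic. The allogeneic change from the syngeneic control was 2.59 (standard error 0.26, limma adjusted p = 1.65e-08), or 6.03-fold, and that from day 0 was 1.70 (limma adjusted p = 6.12e-05). The syngeneic group was below day 0 by -0.89 on the log2 scale (standard error 0.31, limma adjusted p = 0.0374), a call that was lost without the day 0 JL019 (-0.83, limma adjusted p = 0.234) or JL027 (-0.95, 0.0819) or the syngeneic JL019-1 (-0.82, 0.0982) or JL027 (-0.73, 0.149). It was also lost with median centring of the libraries (-0.70, limma adjusted p = 0.101), quantile normalisation (-0.21, 0.694), the library mean as covariate (-0.33, 0.477) and these groups alone in the model (0.221). In libraries labelled Treg, Maf was at 2430.2 and 2029 at day 0 and at 4174, 4735 and 4776 in the Treg-treated group, a rise of 1.04 (standard error 0.31, limma adjusted p = 0.0241). That call was lost without the day 0 JL019 (1.17, limma adjusted p = 0.0870) or JL027 (0.91, 0.189) or the Treg-treated JL019-2 (1.01, 0.0664) or JL027 (1.0, 0.0684), and with quantile normalisation (0.77, 0.146). By level the groups ran from Treg-cell Treg-treated, CD4 Treg-treated, Treg day 0, CD4 allogeneic and CD4 day 0 to CD4 syngeneic, CD8 Treg-treated, CD8 allogeneic, CD8 day 0 and CD8 syngeneic. Of these 9 pairs of neighbours 5 had ranges that lay apart: Treg-cell Treg-treated over CD4 Treg-treated, CD4 allogeneic over CD4 day 0, and each step from CD8 Treg-treated down to CD8 syngeneic.

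The allogeneic and syngeneic groups compare donor cells facing a mismatched recipient with donor cells in a matched one. In CD4 cells Tbx21, Gata3, Rora and Maf were called higher and Eomes was not, which makes 4 of 5 members, whereas 6.69% of all 16741 genes were called higher and 14.6% in either direction. In CD8 cells Gata3, Rora and Maf were called higher and Eomes lower, again 4 of 5, beside 21.1% of all genes called in either direction. All 4 called members had ranges that lay apart in each cell type, as did 23.2% of all genes in CD4 and 30.3% in CD8 cells. The myeloid marker sum of 41418 to 67232 in the CD8 syngeneic libraries was above that of the CD8 allogeneic libraries (11845 to 17543), none of the 10 genes being at 0 in every library of either group, and the natural killer sum was 4066 to 6314 against 2537 to 3388, with Klra8 at 0 in the allogeneic libraries. In CD4 cells the myeloid sum was 80879 or more in the syngeneic and 8675 to 15620 in the allogeneic libraries, and the natural killer sum was 1349 or more against 706 to 860. The sum of 7 B-cell genes was also higher in the CD8 syngeneic (3282 to 4075) than in the CD8 allogeneic libraries (1152 to 1279), whereas the CD4 groups overlapped in it. The sum of 7 erythroid genes was 4650 or more in the CD4 syngeneic and 454 to 10738 in the CD4 allogeneic libraries, and 3247 to 11090 against 563 to 14787 in CD8 cells. The sum of 10 Treg marker genes, some of which activated T cells also express and of which Il2ra and Foxp3 stand in the lists described below, was higher in the allogeneic than in the syngeneic libraries, at 56721 to 71501 against 20068 to 24305 in CD4 and 41156 to 48900 against 7071 to 13701 in CD8 cells. The sum of Cd8a and Cd8b1 was 357 to 605 in the CD4 allogeneic and 944 or more in the CD4 syngeneic libraries, and that of Cd4 and Zbtb7b was 184 to 409 in the CD8 allogeneic and 29.4 to 88.3 in the CD8 syngeneic libraries. The part of these markers in the changes was not tested. Within the JL019 libraries alone the CD4 changes were 2.88 for Tbx21, 2.93 for Gata3, 2.71 for Rora and 2.79 for Maf. Without the CD4 syngeneic JL019-2, which leaves 1 syngeneic library of that prefix, they were 1.83, 1.51, 1.76 and 2.19, and Tbx21 was not called (limma adjusted p = 0.0918). Within JL027, where there is 1 syngeneic library, they were 2.20, 1.77, 1.61 and 1.88 in the same order, and only Maf passed the test there. In CD8 cells the JL019 and JL027 changes were -2.11 and -2.17 for Eomes, 4.62 and 3.88 for Rora, 2.45 and 2.90 for Maf and 1.24 and 0.96 for Gata3. The JL019 changes of Eomes, Rora and Maf passed the test and that of Gata3 did not. JL027 has 1 CD8 syngeneic library, so only the size of its changes is given.

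The allogeneic change differed between the cell types for Tbx21, Eomes and Rora. The CD8 change minus the CD4 change was -3.06 on the log2 scale for Tbx21 (standard error 0.56, limma adjusted p = 0.00102), -2.01 for Eomes (standard error 0.37, limma adjusted p = 0.00120) and 2.06 for Rora (standard error 0.52, limma adjusted p = 0.0193). It was -1.39 for Gata3 (limma adjusted p = 0.167) and 0.06 for Maf (limma adjusted p = 0.967), neither of which passed. These 3 of 5 members stand beside 4.65% of all genes called for the same difference. Without the CD4 syngeneic library JL019-2 the differences were -2.47 for Tbx21 (limma adjusted p = 0.00269), -1.68 for Eomes (0.00376), 2.67 for Rora (0.000341), -0.55 for Gata3 (0.521) and 0.56 for Maf (0.364). The Rora call was lost without the CD4 syngeneic JL019-1 (1.73, limma adjusted p = 0.0561) or JL027 (1.79, 0.0558) or the CD8 syngeneic JL019-1 (1.91, 0.0626) and with quantile normalisation (1.74, 0.0560), and Gata3 gained one without the CD4 syngeneic JL019-1 (-1.97, 0.0148). Within JL019 and JL027 the differences were -3.23 and -2.58 for Tbx21, -2.09 and -1.76 for Eomes and 1.91 and 2.27 for Rora, none past the test within a prefix. Those of JL019 without the CD4 syngeneic JL019-2, which leaves 1 CD4 syngeneic library of that prefix, were -2.18 for Tbx21, -1.53 for Eomes and 2.86 for Rora.

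**Figure D2:**
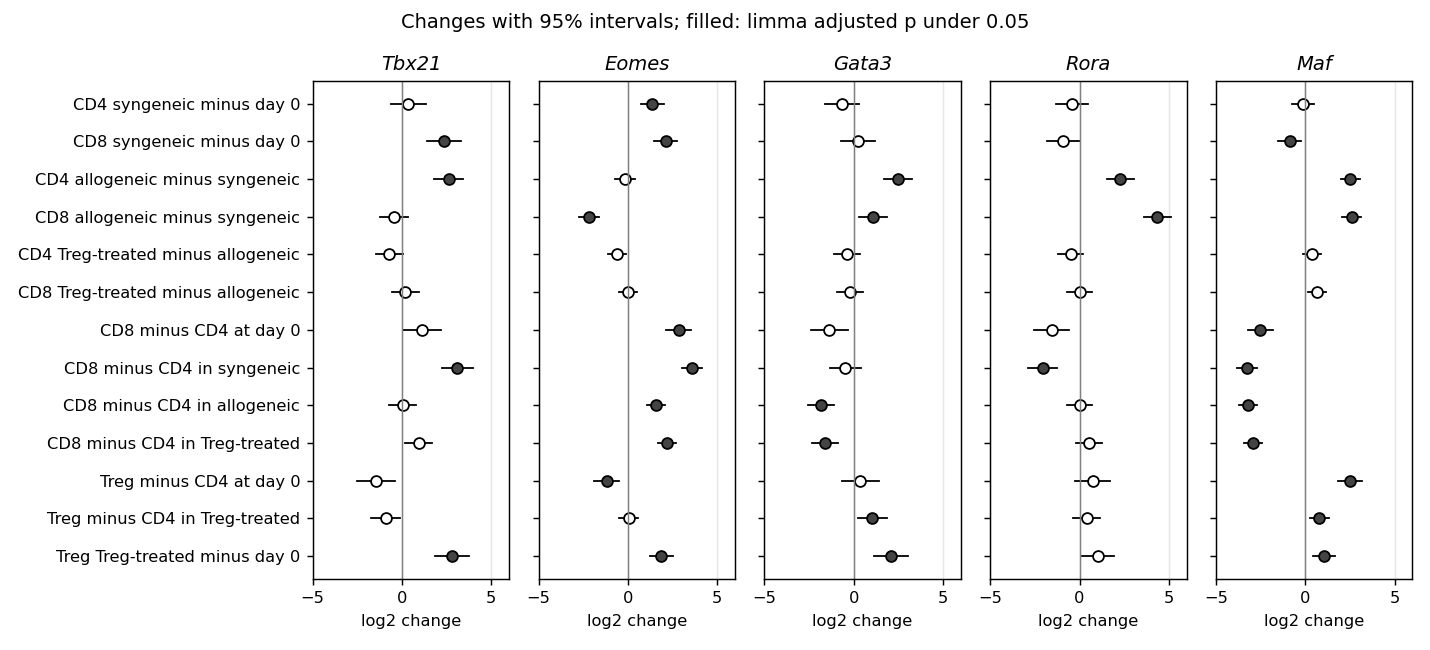
Log2 change (horizontal axis, with 95% intervals) of the 5 factors in 13 comparisons between groups, filled where limma's adjusted p was below 0.05. Rora and Eomes lie farthest from 0 in opposite directions for CD8 allogeneic minus syngeneic (4.36 and -2.17), and all Treg-treated minus allogeneic points are open.

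The Treg-treated and allogeneic groups ask what Treg given at transplant change in the conventional cells. None of the 5 factors passed the test in CD4 cells, where 22.2% of all genes did, or in CD8 cells, where 0.0657% did. At an unadjusted p below 0.05 stood 1 of the 5 in CD4 cells, Eomes, among 6190 genes, and 1 of the 5 in CD8 cells, Maf, among 1851. In CD4 cells Tbx21 differed by -0.71 (standard error 0.36, 95% interval -1.46 to 0.04, limma adjusted p = 0.158), its mean being 2666 ± 383 (n = 4) against 4362 ± 653. Eomes differed by -0.59 (standard error 0.24, 95% interval -1.09 to -0.09, limma adjusted p = 0.0780), its mean being 242 ± 44.0 against 363 ± 56.6. Maf differed by 0.37 (standard error 0.24, limma adjusted p = 0.273), its mean being 2675 ± 239 against 2072 ± 206. For these 3 of 5 members every Treg-treated CD4 library lay on 1 side of every allogeneic one, as it did for 22.2% of all genes. Gata3 differed by -0.40 (limma adjusted p = 0.443) and Rora by -0.50 (limma adjusted p = 0.302), with ranges that overlapped. In a fit to these 2 groups alone Tbx21, at -0.71, had a limma adjusted p of 0.0174, and with the library mean as covariate it was at -0.17 (0.818). The main test takes its spread from all 31 libraries, among them the CD4 syngeneic JL019-2. For Tbx21 the SD of log2 values was 1.07 in the CD4 syngeneic group, against 0.23 in the allogeneic and 0.21 in the Treg-treated CD4 group. No refit that drops only that library was run for this comparison.

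When each library was centred on its own median, the median of all genes in this CD4 comparison moved from -0.00 to 0.20, and the values of Tbx21, Eomes and Maf were -0.51, -0.39 and 0.57. Within JL019 and JL027 the CD4 differences were -0.84 and -0.58 for Tbx21, -0.50 and -0.68 for Eomes, 0.41 and 0.33 for Maf and -0.14 and -0.86 for Rora. The myeloid marker sum was 27638 to 95898 in the CD4 Treg-treated libraries and 8675 to 15620 in the CD4 allogeneic ones, again with no gene at 0 throughout a group. The erythroid sum was 5511 to 62581 against 454 to 10738. The Treg marker sum was 125059, 151952, 61074 and 85675 in the Treg-treated and 56721 to 71501 in the allogeneic CD4 libraries. That of Cd4 and Zbtb7b was 9695, 9319, 18135 and 9881 against 17389 to 22518. In both sums only the Treg-treated JL027-1 lay within the allogeneic range. The part of these markers in the differences was not tested. In CD8 cells Maf was at 353 ± 47.5 against 223 ± 26.7 (n = 4 each), a difference of 0.65 (standard error 0.24, 95% interval 0.16 to 1.15, limma adjusted p = 0.322), and was the 1 member of 5 whose ranges lay apart, as those of 4.89% of all genes did. The myeloid sum was 18079 to 45292 in the CD8 Treg-treated and 11845 to 17543 in the CD8 allogeneic libraries, and the B-cell sum 1341 to 2135 against 1152 to 1279, both without overlap, and their part in the difference was not tested. The other CD8 values were 0.19 for Tbx21, 0.02 for Eomes, -0.19 for Gata3 and 0.02 for Rora, with limma adjusted p from 0.850 to 0.986. For Tbx21, Eomes and Rora the CD8 values had opposite signs in the 2 prefixes, -0.39 in JL019 and 0.77 in JL027 for Tbx21, -0.31 and 0.35 for Eomes, and 0.51 and -0.48 for Rora. The effect of Treg treatment was not found to differ between CD8 and CD4 cells for any of the 5, with differences of 0.21 to 0.90 and limma adjusted p from 0.898 to 0.942. There 0.00597% of all genes passed and 430 genes had an unadjusted p below 0.05.

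The Treg-treated groups were also compared with the syngeneic controls, which the allogeneic comparison shares. In CD4 cells the changes were 1.90 for Tbx21 (limma adjusted p = 0.00116), 2.07 for Gata3 (0.000354), 1.79 for Rora (0.00113) and 2.90 for Maf (6.16e-09), and -0.75 for Eomes (0.0498). All 5 were thus called, beside 16.7% of all genes. The ranges lay apart for 4 of 5, all but Eomes, and for 18% of all genes. The Eomes call was lost without any 1 of the CD4 Treg-treated JL019-1, JL019-2 and JL027-2 and the CD4 syngeneic JL019-1 and JL027, with limma adjusted p up to 0.278. It was also lost with a pseudocount of 0.1 (-0.75, limma adjusted p = 0.0516), median centring (-0.44, 0.199), quantile normalisation (-0.43, 0.297), the library mean as covariate (-0.56, 0.118), the recipient as block (-0.73, 0.0549) and the 2 groups alone (0.270). In the fit to those 2 groups alone the calls of Tbx21 (limma adjusted p = 0.0618), Gata3 (0.107) and Rora (0.104) were lost too. Without the syngeneic JL019-2 the 5 values were 1.31 for Tbx21, 1.24 for Gata3, 1.18 for Rora, 2.40 for Maf and -1.08 for Eomes, with limma adjusted p from 5.18e-09 to 0.0132. In CD8 cells Eomes fell by 2.15 on the log2 scale (limma adjusted p = 5.75e-07), and Rora rose by 4.38 (8.13e-10) and Maf by 3.25 (3.00e-10). Those 3 of 5 stand beside 18.2% of all genes called. Gata3, at 0.90 (limma adjusted p = 0.113), and Tbx21, at -0.26 (0.738), did not pass, although Gata3 did with the library mean as covariate (1.09, 0.0146). The Treg marker sum was 32294 to 60295 in the CD8 Treg-treated and 7071 to 13701 in the CD8 syngeneic libraries, and 61074 to 151952 against 20068 to 24305 in CD4 cells. In CD8 cells the B-cell sum was 1341 to 2135 against 3282 to 4075 and that of Cd4 and Zbtb7b 135 to 304 against 29.4 to 88.3. In CD4 cells the sum of Cd8a and Cd8b1 was 426 to 863 against 944 to 5116. The sum of 6 T-cell genes was 133985 to 253655 against 50478 to 125792. The myeloid and natural killer sums overlapped between these groups in both cell types, and the part of these markers in the changes was not tested.

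Against the cells taken before transplant, all 5 factors were called higher in allogeneic CD4 cells, beside 14.4% of all genes called higher and 24% in either direction. In allogeneic CD8 cells 4 of 5 were called higher, all but Eomes, beside 16.3% of all genes higher and 30.4% in either direction. In the syngeneic groups only Eomes was called in CD4 cells, beside 13% of all genes in either direction, and Tbx21, Eomes and Maf in CD8 cells, beside 24.2%. Syngeneic CD4 cells differed from day 0 in neither Tbx21, Gata3, Rora nor Maf by the test, also without the library JL019-2, where Tbx21 stood at 0.95 (limma adjusted p = 0.227), Gata3 at 0.16 (0.843), Rora at 0.20 (0.853) and Maf at 0.36 (0.483). Without the CD4 syngeneic JL019-1 instead, Gata3 passed at -1.25 (limma adjusted p = 0.0453). In the libraries labelled Treg, 4 of 5 were called higher in the Treg-treated group than at day 0, all but Rora, beside 8.43% of all genes called higher and 13.3% in either direction. The myeloid marker sum at day 0 was 2747 to 3897 in CD4, 5889 to 7985 in CD8 and 5472 to 5613 in Treg libraries. Cd14 was at 0 in the CD4 libraries of day 0. The myeloid sum was 6634 to 11403 in the libraries labelled Treg of the Treg-treated group. The erythroid sum in libraries labelled Treg was 121 to 455 at day 0 and 1670 to 50243 in the Treg-treated group. In CD8 cells it was 30572 to 34782 at day 0, above the syngeneic (3247 to 11090) and allogeneic (563 to 14787) libraries, and in CD4 cells it was 728 to 1413 at day 0. No erythroid gene was at 0 throughout a group. The natural killer sum was 1309 to 1532 in the CD8 day 0 libraries, below those of the CD8 syngeneic and allogeneic groups, and 645 to 663 in the CD4 day 0 libraries, below those of the same groups of CD4 cells. It was 652 to 825 in the Treg libraries of day 0 and 207 to 291 in the libraries labelled Treg of the Treg-treated group. The B-cell sum was 2022 to 2713 in CD8, 558 to 773 in CD4 and 1095 to 1306 in Treg cells of day 0, and 609 to 912 in the libraries labelled Treg of the Treg-treated group. The Treg marker sum at day 0 was 3342 to 4103 in CD8, 16374 to 18194 in CD4 and 87428 to 90532 in Treg libraries, below that of every later group of the same label, the libraries labelled Treg of the Treg-treated group being at 183017 to 262411. The part of these markers in the changes was not tested.

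Eomes and Maf were called between CD8 and CD4 cells in all 4 conditions compared. Eomes was higher in CD8 cells by 2.85 at day 0 (limma adjusted p = 3.39e-06), 3.61 in the syngeneic (7.13e-10), 1.59 in the allogeneic (7.77e-05) and 2.20 in the Treg-treated group (4.10e-07). Maf was lower in CD8 cells, with differences of -2.52 (limma adjusted p = 1.75e-05), -3.28 (2.81e-09), -3.21 (3.91e-10) and -2.93 (1.91e-09) in the same order. Without the CD4 syngeneic JL019-2 the syngeneic differences were 3.27 for Eomes and -3.77 for Maf (limma adjusted p = 2.41e-09 and 2.44e-12). Gata3 was lower in CD8 cells of the allogeneic group by -1.85 (limma adjusted p = 0.00121) and of the Treg-treated group by -1.63 (0.00273), with -1.36 (0.185) at day 0 and -0.46 (0.488) in the syngeneic group. Without the CD4 syngeneic JL019-2 the last value was -1.29 (limma adjusted p = 0.00265). Tbx21 was higher in CD8 cells of the syngeneic group by 3.10 (limma adjusted p = 6.66e-06; 2.51 without JL019-2), and in the allogeneic group the difference was 0.04 with a 95% interval of -0.71 to 0.79. In the Treg-treated group Tbx21 differed by 0.94 (limma adjusted p = 0.111), or by 1.34 (0.00715) without the CD8 Treg-treated JL019-2. Rora was lower in syngeneic CD8 cells by -2.05 (limma adjusted p = 0.000696; -2.66 without JL019-2; adjusted p = 0.135 with the 2 groups alone) and differed by 0.01 with a 95% interval of -0.69 to 0.71 in the allogeneic group. At day 0 Tbx21 differed by 1.11 (limma adjusted p = 0.384) and Rora by -1.56 (0.0839), of which Rora passed with the recipient as block (0.0341), and all 5 factors passed in a fit to the 2 day 0 groups alone. The number of members called was 2 of 5 at day 0, 4 of 5 in the syngeneic group, 3 of 5 in the allogeneic group and 3 of 5 in the Treg-treated group. Of all genes 3.32%, 12%, 6.15% and 9.61% were called in these comparisons. Within JL019 and JL027 the allogeneic differences were 1.68 and 1.5 for Eomes, -3.07 and -3.35 for Maf and -1.87 and -1.83 for Gata3, of which both of Gata3 and the JL027 value of Eomes (limma adjusted p = 0.0594) did not pass. At day 0 the natural killer sum was 1309 to 1532 in CD8 and 645 to 663 in CD4 libraries. The B-cell sum there was 2022 to 2713 against 558 to 773 and the erythroid sum 30572 to 34782 against 728 to 1413. In the allogeneic group the natural killer sum was 2537 to 3388 against 706 to 860. The B-cell sum was 3282 to 4075 against 276 to 1682 in syngeneic and 1341 to 2135 against 612 to 1134 in Treg-treated libraries. The part of these markers in the differences was not tested.

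The libraries labelled Treg were set against the conventional cells sorted at the same time. At day 0 Maf was 2.50 higher on the log2 scale in Treg than in CD4 cells (limma adjusted p = 2.57e-05). Eomes was lower by -1.18 (limma adjusted p = 0.0499), a call lost without any 1 of the 4 libraries and with these groups alone in the model (0.0613). These 2 of 5 stand beside 3.89% of all genes called. In the Treg-treated group the libraries labelled Treg had higher Gata3 than CD4 cells, by 1.05 (limma adjusted p = 0.0391; 12521 ± 1209.6, n = 3, against 6118 ± 1314, n = 4), and higher Maf, by 0.77 (0.0261; 4562 ± 336 against 2675 ± 239), beside 30% of all genes called. Both had ranges that lay apart, as 36.5% of all genes did, but the Gata3 call was lost without any 1 of the 7 libraries except the CD4 JL019-2, with limma adjusted p of 0.0567 to 0.108. The Maf call was lost without the CD4 JL019-1 (0.71, limma adjusted p = 0.0716) or the Treg JL019-1 (0.83, 0.0522), JL019-2 (0.74, 0.0743) or JL027 (0.74, 0.0794). Both calls were lost with median centring (Gata3 0.84, limma adjusted p = 0.0769, and Maf 0.56, 0.111) and with the library mean as covariate (0.58, 0.293, and 0.45, 0.201). Tbx21 was below the CD4 libraries in every Treg library, at 1428 ± 330.2 against 2666 ± 383, with a difference of -0.92 that did not pass (limma adjusted p = 0.0780) but did with median centring (-1.13, 0.0148), with that covariate (-1.51, 0.00174) and with these groups alone (0.0140). Against CD8 cells of the same group, the libraries labelled Treg had lower Tbx21 (-1.85, limma adjusted p = 0.000619) and Eomes (-2.15, 5.02e-07) and higher Gata3 (2.68, 4.80e-06) and Maf (3.70, 2.75e-11), beside 36.2% of all genes called. Rora differed by -0.14. In Treg-treated recipients the natural killer sum was 207 to 291 in Treg, 683 to 2778 in CD4 and 2588 to 8909 in CD8 libraries. The myeloid sum was 6634 to 11403, 27638 to 95898 and 18079 to 45292 in the same order. At day 0 the myeloid sum was 5472 to 5613 in Treg and 2747 to 3897 in CD4 libraries. The B-cell sum there was 1095 to 1306 against 558 to 773 and the erythroid sum 121 to 455 against 728 to 1413. The part of these markers in the differences was not tested.

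The ratio of 2 factors within a library does not depend on the scaling of that library. The log2 ratio of Eomes to Tbx21 in CD8 cells was -0.08 at day 0, -0.31 ± 0.19 (SD, n = 3) in the syngeneic, -2.03 ± 0.39 (n = 4) in the allogeneic and -2.20 ± 0.55 (n = 4) in the Treg-treated group. In CD4 cells it was -1.83, -0.82 ± 0.49, -3.58 ± 0.25 and -3.47 ± 0.15 in the same order (with -0.30 in the syngeneic JL019-2), and in the libraries labelled Treg -1.54 at day 0 and -2.49 ± 0.23 after treatment. The ratio was thus lowest in the GVHD groups of both conventional cell types, with the CD8 value above the CD4 value in each. The log2 ratio of Gata3 to Tbx21 in CD4 cells was 2.05 at day 0, 1.01 ± 0.42 in the syngeneic (with 0.52 in JL019-2), 0.88 ± 0.08 in the allogeneic and 1.19 ± 0.35 in the Treg-treated group. In CD8 cells it was -0.42, -2.55 ± 0.25, -1.01 ± 0.17 and -1.38 ± 0.59, and in the libraries labelled Treg 3.89 at day 0 and 3.15 ± 0.21 after treatment. The ratios differ between genes also through gene length, so only their differences between groups were compared.

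Across 8 tests, the CD8 ratio of Eomes to Tbx21 exceeded the CD4 one by 1.55 in the allogeneic and 1.26 in the Treg-treated group, and the ratio of Gata3 to Tbx21 differed by -1.89 and -2.57. Each of these 4 differences had a two-sided exact permutation p of 0.0286, the smallest that 4 against 4 libraries can give, and 0.0571 after adjustment over the 8 tests, with all 8 libraries on their own side. CD4 and CD8 libraries with the same prefix, treatment and number are taken as 1 recipient, and in the test paired by recipient the exact p was 0.125, the smallest that 4 pairs can give. Treg-treated minus allogeneic differences in the ratio of Eomes to Tbx21 were 0.12 in CD4 cells (exact permutation p = 0.571) and -0.17 in CD8 cells (exact p = 0.6). For the ratio of Gata3 to Tbx21 they were 0.31 (exact p = 0.114) and -0.38 (exact p = 0.314). No difference of either ratio with Treg treatment was detected at this number of libraries.

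**Figure D3:**
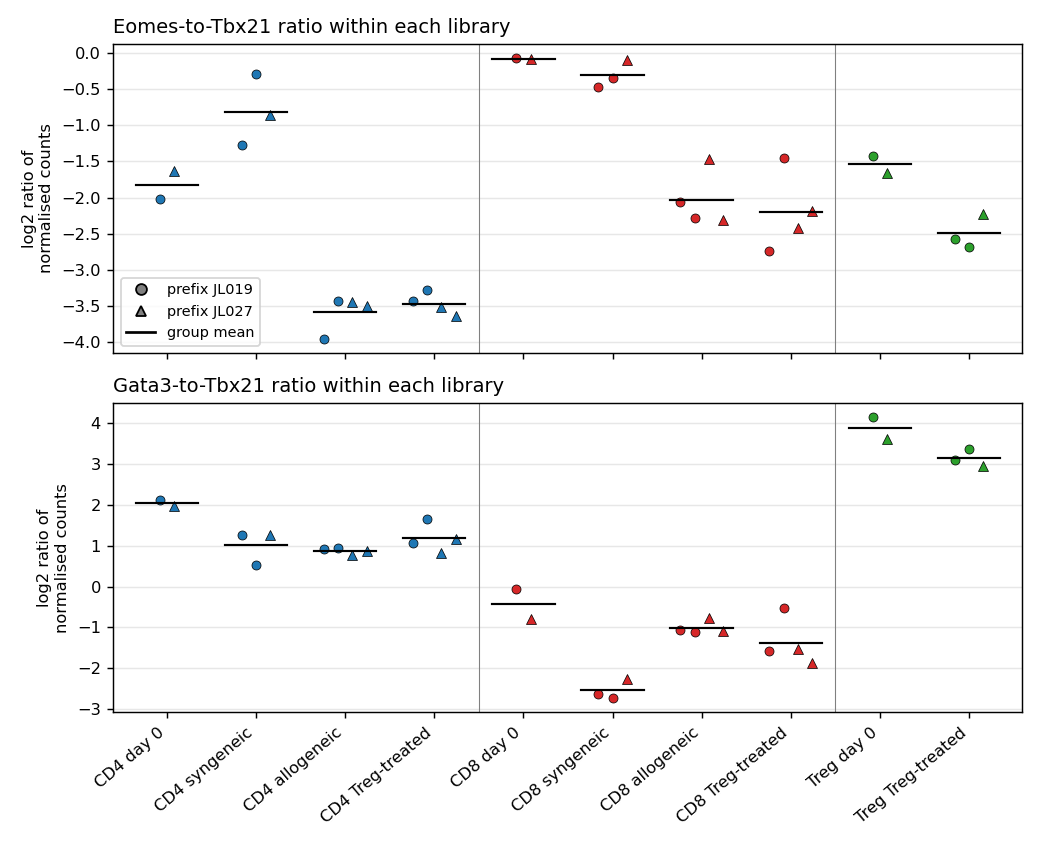
Log2 ratio (vertical axis) of Eomes to Tbx21 and of Gata3 to Tbx21 in each library, by group (horizontal axis), with circles for JL019, triangles for JL027 and bars for group means. The allogeneic means of the Eomes-to-Tbx21 ratio are -3.58 in CD4 and -2.03 in CD8 cells, and the syngeneic means are -0.82 and -0.31.

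The genes that act upstream, beside and downstream of the 5 factors were followed as 6 lists, which hold none of the 5. The lists have 80 places for 75 distinct genes measured, since 5 genes, Il12rb2, Il2rb, Il4 and Zeb2 among them, stand in 2 lists and are counted in both. In CD4 cells of the allogeneic against the syngeneic group, 14.6% of all genes were called in either direction and 6.69% higher. Of 18 type 1 genes 11 were called higher and 2 lower, with a median change of 1.71 beside -0.00 for all genes. Gzmb, a cytotoxic granule protease, rose by 3.41 on the log2 scale (limma adjusted p = 5.06e-10), Il12rb2, the signalling chain of the IL-12 receptor, by 5.40 (4.93e-08) and Cxcr3, a chemokine receptor of type 1 cells, by 1.99 (1.13e-07). Zeb2, a repressor known downstream of T-bet, and the chemokine gene Xcl1 each had a change of -1.61 (limma adjusted p = 0.0182 and 0.0262), which became -0.48 (0.294) for Zeb2 and -1.05 (0.244) for Xcl1 without the syngeneic library JL019-2. Xcl1 also lost its call without the allogeneic JL019-1 (-1.34, limma adjusted p = 0.103) or JL027-2 (-1.57, 0.0583). Of the 9 type 2 genes measured 6 were called higher and 0 lower, with a median of 2.32. Il1rl1, the IL-33 receptor, rose by 3.37 (limma adjusted p = 2.92e-07), Il4 by 3.23 (1.17e-05) and the transcription factor gene Epas1 by 4.50. Of the 8 type 17 genes measured 3 were called lower and 0 higher, with a median of -1.0. Ccr6, a chemokine receptor of type 17 cells, had a change of -3.37 (limma adjusted p = 0.000493), while Rora itself rose. Tmem176b had a change of -1.21 (limma adjusted p = 0.0407) that became -0.44 (0.524) without the syngeneic JL019-2, and it lost its call without the allogeneic JL019-2, JL027-1 or JL027-2 as well (0.0719 to 0.0943). Of 9 genes linked to c-Maf, 8 were called higher and 0 lower, with a median of 2.88, among them the co-receptors Tigit (3.94), Icos (3.23) and Havcr2 (3.12).

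Among 18 other lineage factors 9 were called higher and 3 lower in this CD4 comparison. Prdm1, the Blimp-1 gene, rose by 2.91 (limma adjusted p = 1.43e-08), Bhlhe40 by 3.24 and Id2 by 2.15, whereas Hlx, a homeobox factor of type 1 cells, had a change of -2.92 (limma adjusted p = 0.0197) that became -1.69 (0.259) without the syngeneic JL019-2 and -2.41 (0.0804) without the allogeneic JL019-2. Among 18 genes of the upstream signals 6 were called higher and 2 lower. The 2 chains of the interferon-gamma receptor went in opposite directions, Ifngr1 at 2.46 and Ifngr2 at -4.85 (limma adjusted p = 3.33e-10 for each). Stat4, the transducer of IL-12, rose by 1.87 and Il6ra, the IL-6 receptor, had a change of -3.92. Without the syngeneic library JL019-2 the numbers higher and lower were 10 and 0 for type 1, 5 and 0 for type 2, 0 and 2 for type 17, 7 and 0 for the c-Maf list, 8 and 2 for the other factors and 6 and 4 for the upstream signals. Without it the medians were 1.58 for type 1, 1.92 for type 2, -0.41 for type 17, 2.51 for the c-Maf list, 0.66 for the other factors and 0.20 for the upstream signals. Gzmb, Il12rb2, Cxcr3, Il1rl1, Il4, Epas1, Ccr6, Tigit, Icos, Havcr2, Prdm1, Bhlhe40, Id2, Ifngr1, Ifngr2, Stat4 and Il6ra kept their call and direction without it. Without the allogeneic library JL027-2, with median centring and with quantile normalisation 1 type 1 gene was called lower, and with the last 1 type 17 gene was called higher and 2 lower.

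In CD8 cells of the allogeneic against the syngeneic group, genes of the type 1, type 2, type 17 and c-Maf lists were called higher, beside 21.1% of all genes called in either direction. Of the 8 type 17 genes 4 were called higher and 0 lower, with a median of 1.59 beside 0.02 for all genes, and 2 were called higher without the syngeneic library JL019-2. Ccr6 rose by 3.5 (limma adjusted p = 0.000191) and Il23r, the IL-23 receptor, by 2.80 (0.00265). Type 1 genes were called higher in 11 of 18 cases and lower in 4, with a median of 1.2, and lower in 3 with median centring, with quantile normalisation and with any 1 of the libraries of the 2 groups left out. Klrg1, a receptor of short-lived effector cells, rose by 5.99 (limma adjusted p = 4.72e-12), Il12rb2 by 3.73 and Gzmb by 3.24. Xcl1 had a change of -2.85, the sphingosine phosphate receptor gene S1pr5 -3.71 (limma adjusted p = 0.00163) and Cxcr3 -0.89 (0.00268). Of the 9 type 2 genes 6 were called higher and 0 lower, with a median of 2.88, led by Epas1 (6.83), Il1rl1 (5.36) and the chemokine receptor Ccr8 (5.22). Of the 9 c-Maf genes 8 were called higher and 1 lower, with a median of 5.45. The checkpoint receptors Pdcd1 (7.19), Havcr2 (7.23) and Tigit (4.92) rose, and Cxcr5, the homing receptor of follicular cells, had a change of -3.88.

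Other lineage factors were called higher in 10 of 18 cases and lower in 2 in this CD8 comparison. Prdm1 rose by 4.48 and Ahr, the aryl hydrocarbon receptor gene, by 4.62, and Foxp3 rose by 7.35, from normalised counts of 0 to 3.52 to 103 to 453. Tcf7, the TCF1 gene of naive and memory cells, had a change of -3.39 and Hopx -0.92, the latter not past the test without the syngeneic JL027 (-0.67, limma adjusted p = 0.134). Of the upstream signals 3 were called higher and 6 lower, with Il2ra, the high-affinity IL-2 receptor chain, at 4.53, Ifngr1 at 1.65, Il6ra at -4.93 and Ifngr2 at -2.78. The numbers were 5 higher and 4 lower without the allogeneic library JL027-1, and 4 and 4 without the syngeneic library JL019-2.

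The test of the difference between the CD8 and the CD4 change, which called 4.65% of all genes, called some genes of every list. Genes with a greater change in CD8 cells and genes with a lesser one numbered 2 and 0 of 8 for type 17, 4 and 4 of 18 for type 1, 2 and 0 of 9 for type 2, 5 and 1 of 9 for c-Maf, 6 and 2 of 18 for the other factors and 2 and 2 of 18 for the upstream signals. Without the CD4 syngeneic JL019-2 they numbered 2 and 0, 3 and 4, 3 and 0, 6 and 1, 7 and 2, and 1 and 1 in the same order.

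With Treg treatment 22.2% of all genes were called in CD4 cells and 0.0657% in CD8 cells, and each of the 6 lists had called genes in CD4 cells and none in CD8 cells. The test of a difference between the CD8 and the CD4 effect of Treg called 0 genes of the 6 lists by limma. At an unadjusted p below 0.05 stood 1 upstream signal, 0 other factors, 2 type 1, 1 type 2, 2 type 17 and 1 c-Maf gene. In CD4 cells of the Treg-treated against the allogeneic group, 3 type 1 genes were called higher and 3 lower of 18. The chemokine genes Xcl1 (2.68, limma adjusted p = 0.00241), Ccl3 (2.14) and Ccl4 (1.73) rose, and Il18rap (-1.47, 0.00500), Il2rb (-1.07, 0.0344) and Il12rb2 (-1.77, 0.0179, with overlapping ranges), chains of the IL-18, IL-2 and IL-12 receptors, fell. Of the type 2 genes 2 of 9 were called higher and 0 lower, a share near that of all genes. Il4 went from 275 ± 70.1 to 1536 ± 487 (SD, n = 4 each), a rise of 2.44 (limma adjusted p = 0.00241), and Areg, the amphiregulin gene, rose by 3.02 (0.00241), while Gata3 itself was not called. Of the other factors Batf rose by 0.85 (limma adjusted p = 0.0167), and Prdm1 went from 2051 ± 247 to 801 ± 168, a change of -1.37 (0.00348). Bhlhe40 (-1.07) and Ahr (-0.93) also fell, which makes 1 higher and 3 lower of 18, again a share near that of all genes.

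Among the upstream signals 2 were called higher and 5 lower of 18 in this CD4 comparison, with Ifngr2 at 2.33 (limma adjusted p = 0.000681), Ifngr1 at -0.71 (0.0131) and Stat6, the transducer of IL-4, at -1.57 (0.0213). Ccr6 (1.84, limma adjusted p = 0.0303) was the 1 type 17 gene called, and 2 c-Maf genes were called higher, among them Pdcd1 (0.90, 0.0258). The calls of Xcl1, Ccl3, Ccl4, Il18rap, Areg, Il4, Prdm1 and Ifngr2 held with each library left out in turn. Those of Il12rb2, Il2rb, Batf, Bhlhe40, Ahr, Ifngr1, Stat6, Ccr6 and Pdcd1 were each lost without at least 1 of the allogeneic libraries or the Treg-treated JL019-1, JL019-2 and JL027-2, with limma adjusted p up to 0.118. The CD4 counts moved with the libraries used. Those of the upstream signals ran from 1 higher and 0 lower without the Treg-treated JL027-2 to 1 and 9 without the Treg-treated JL027-1, and the number of type 17 genes called higher ran from 0 to 3. Without the Treg-treated JL019-1, JL019-2 or JL027-2 the other factors had 0 higher and 1 lower and type 1 had 3 higher and 1 lower. Without the allogeneic JL019-1 or JL019-2 the other factors also had 1 lower. Leaving out the Treg-treated JL027-1 gave 2 higher and 4 lower among the other factors and 2 and 2 for type 2. The c-Maf list had 1 gene higher without any 1 of the 8 libraries of this comparison except the Treg-treated JL027-1 and the allogeneic JL027-2, and 1 with quantile normalisation. In CD8 cells 0 genes of any of the 6 lists were called by limma, with medians from -0.33 to 1.07. At an unadjusted p below 0.05 stood 0 of the 18 upstream signals, 3 of the 18 other factors, 2 of 18 type 1, 4 of 9 type 2, 3 of 8 type 17 and 3 of 9 c-Maf genes, beside 11.1% of all genes.

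**Figure D4:**
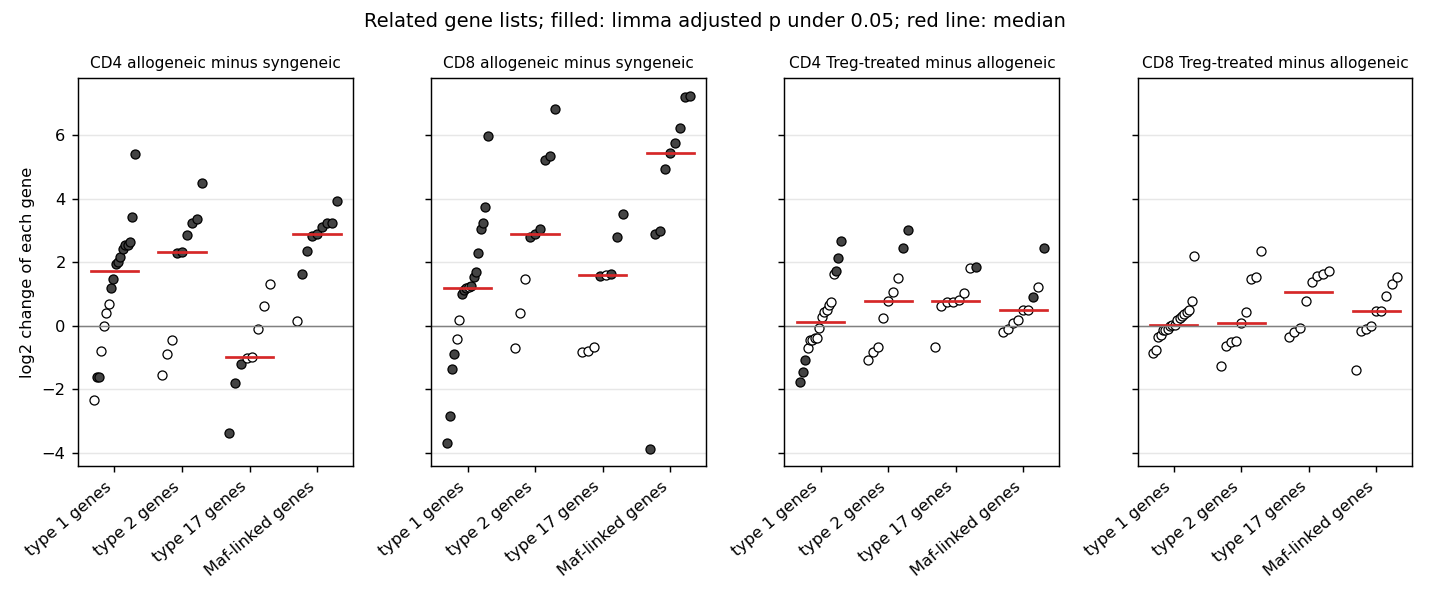
Log2 change (vertical axis) of each measured gene of the type 1, type 2, type 17 and c-Maf lists in CD4 and CD8 cells for allogeneic minus syngeneic and Treg-treated minus allogeneic, filled where limma's adjusted p was below 0.05, with the list median as a red line. The type 17 median is -1.0 in CD4 cells (-0.41 without the syngeneic library JL019-2) and 1.59 in CD8 cells for allogeneic minus syngeneic, and no gene is filled in CD8 cells for Treg-treated minus allogeneic.

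The genes whose group means most resembled those of each factor were found by Pearson correlation over the 10 group means among 9865 genes. These points share control groups and libraries, so the values are descriptions. For Tbx21 they were Selplg (0.980), which encodes the selectin ligand PSGL-1, Rab8a (0.977) and Ppp2ca (0.976). For Eomes they were Dars (0.979), Rras2 (0.969) and Gtf2h3 (0.961). For Gata3 they were Itm2c (0.971), Nmur1 (0.960), the neuromedin U receptor gene, and Fbxo33 (0.948). For Rora they were Pdcd1 (0.965), the PD-1 gene, Gstt3 (0.964) and Grb7 (0.963), and for Maf Susd2 (0.966), Ccn4 (0.966) and Penk (0.964), the proenkephalin gene. Among the 5 themselves, over the same 10 means, Gata3 and Maf were most alike (0.911), Tbx21 and Eomes were at 0.757, Rora was at 0.741 with Gata3 and 0.748 with Maf, and Eomes was at -0.799 with Maf. Tbx21 and Gata3 were at 0.0280.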

How the data were processed

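RNA of sorted cells was extracted with TRizol and RNeasy MinElute columns and made into libraries with SMARTer v4 and Nextera XT kits, per the labels' protocols. The submitters' processing notes name kallisto, DESeq2, FastQC 0.11.7 and the builds GRCm38 and mm10, without their roles. The deposited table holds the authors' signal, normalised counts per gene, which are fractional with no recoverable unit of 1 read, so depth is unknown and no count model was used. On log2(value + 1), limma 3.58.1 (R 4.3.3) fitted 1 mean per group to all 31 libraries, with trended and robust variance. A filter on a mean of at least 1 removed no gene. Adjusted p is Benjamini-Hochberg over 16741 genes for each of 20 contrasts, called below 0.05. Fold changes are therefore on the log2(value + 1) scale and understate those of low genes. Ratios were tested by two-sided exact permutation. The labels do not say whether libraries of a group came from separate animals, so p-values measure only the spread between these samples, which may be technical. The members and lists were chosen with earlier results of these data known. The genes named are the 5 members, up to 3 rising and 3 falling genes with the lowest p per list and comparison, the 3 genes most like each member (mean of at least 100), and sorting markers; some list genes that this rule names are not reported here. Of the type 2 list Il5, Il9, Il24 and Ptgdr2 and of the type 17 list Il17a and Ccl20 had no row and were not analysed here. T-cell receptor data were not used here. CD4 and CD8 libraries with the same prefix and number had r of 0.135, 0.183, 0.416 and 0.140 between their deviations from the group means in the allogeneic group. Pairs of differing prefix or number ran from -0.275 to 0.126 there. The recipient was therefore used as a block in an alternative. In the Treg-treated group r was -0.107, 0.219, 0.428 and 0.0853, beside -0.496 to 0.256 for the other pairs. In the syngeneic group it was 0.145, -0.114 and -0.0618, beside -0.202 to 0.167. At day 0 it was -0.319, the same for both pairs by construction, since each group has 2 libraries. The code was tested on simulated data.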

Additional observations from a re-analysis of the deposited data

Results flagged for a closer look

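In 28 sets of 4 libraries, 4 had 1 library far from the other 3, with a gap that takes up more of the range than Dixon's 95% value of 0.829. Chance gives about 1 such set in 20. Eomes in CD4 Treg-treated cells had JL027-2 low at 176 (gap 0.890 of the range). Eomes in CD8 allogeneic cells had JL027-1 low at 857 (gap 0.877), the library in which all 5 factors had the lowest value of the group. The log2 ratio of Eomes to Tbx21 in CD4 allogeneic cells had JL019-1 low at -3.95 (gap 0.871). The log2 ratio of Gata3 to Tbx21 in CD8 allogeneic cells had JL027-1 high at -0.76 (gap 0.890).

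The allogeneic-minus-syngeneic change differed between CD8 and CD4 cells by limma's test of that difference for Tbx21 (-3.06), Eomes (-2.01) and Rora (2.06). The values without each library that ends a call stand with the comparison itself.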

How the results depend on the processing

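Of 100 log2 changes of the 5 factors (20 contrasts each), 56 were called. All 56 kept their direction under every alternative run, 44 kept their call with each library left out in turn, and 25 kept it under every alternative, which include fits within 1 prefix that leave 1 to 2 libraries per group. No called value reversed, and of the 44 values not called 19 changed sign under at least 1 alternative. With the 2 groups alone in the model the number of 5 called was 1 for CD4 Treg-treated minus allogeneic, 1 for CD4 Treg-treated minus syngeneic, 0 for CD4 syngeneic minus day 0 and 5 for CD8 minus CD4 at day 0. Within JL027 it was 1 for CD4 allogeneic minus syngeneic, 1 for CD4 Treg-treated minus syngeneic, 3 for CD4 allogeneic minus day 0, 2 for CD8 allogeneic minus day 0, 0 for CD4 and for CD8 syngeneic minus day 0, 1 for Treg cells after treatment minus day 0, 1 for Treg minus CD4 at day 0 and 0 in Treg-treated, and 2 and 1 for CD8 minus CD4 in syngeneic and allogeneic. Within JL019 it was 3 for CD4 allogeneic minus day 0, 0 for CD4 syngeneic minus day 0, 2 for Treg cells after treatment minus day 0, and 1 and 0 for Treg minus CD4 at day 0 and in Treg-treated. For the difference of the allogeneic change between CD8 and CD4 it was 0 within each prefix. For Treg minus CD4 in Treg-treated it was 1 with median centring and 1 with the library mean as covariate. With 1 library left out it was 0 to 2 for CD4 syngeneic minus day 0, 1 for Treg minus CD4 at day 0 and 0 to 2 for Treg minus CD4 in Treg-treated. With that covariate Tbx21 in CD4 Treg-treated minus allogeneic was -0.17. The cause of these moves was not tested, apart from the smaller number of libraries within a prefix.

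With the recipient as a replicate block, Eomes in CD4 Treg-treated minus syngeneic was -0.73 (limma adjusted p = 0.0549) and Rora in CD8 minus CD4 at day 0 was -1.56 (limma adjusted p = 0.0341). The block changed no other call of the 5 factors, and the title prefix as a replicate block changed none. Paired by recipient, the CD8 minus CD4 ratios had an exact p of 0.125, the smallest that 4 pairs can give. The Treg-treated minus allogeneic ratio of Eomes to Tbx21 was 0.0806 in CD8 cells of JL019 and -0.107 in CD4 cells of JL027, and with 1 library left out ran from -0.42 to 0.0173 in CD8 and from -0.0076 to 0.174 in CD4 cells. That of Gata3 to Tbx21 was 0.0379 in CD8 cells of JL019. The CD8 minus CD4 ratios ran from 1.36 to 1.64 (Eomes) and -1.97 to -1.85 (Gata3) in the allogeneic group, and from 1.01 to 1.44 and -2.85 to -2.40 in the Treg-treated group. Of 456 list counts recomputed under alternatives chosen after seeing the data, 55 moved by over 1.5 times. Counts of 0 in both fits were taken as not moved. Among them were most of those for CD8 Treg-treated minus allogeneic, where the main fit called 0 genes of any list. Depth is unknown, so low values such as Maf in CD8 cells carry no counting interval.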
